A study of Salmo trutta with 45 samples.

Results

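The livers described here came from 6 juvenile female brown trout (Salmo trutta) kept for 14 days in flowing water dosed with Roundup, a commercial glyphosate herbicide, at 0.5 mg/L expressed as glyphosate acid (the MR fish, MR1 to MR6). They were set against the livers of 12 untreated juvenile females of the same 14-day experiment (C1 to C12). The paper merged its control groups into these 12 after finding them similar, and the labels do not tell which control came from which group. These 18 fish, chosen by their labels, are part of a series of 45. Fish given Roundup at 0.01 mg/L (LR, n = 6) and at 10 mg/L (HR, n = 6) were used only to set the MR livers beside the doses below and above. Each library was made from the liver of 1 fish and was not pooled. Fish of a treatment shared tanks, and the labels do not tie fish to tanks, so p-values that treat each fish as independent may be too small. The study asked which transcripts of the liver change with exposure, and the comparison below asks this for the middle dose.

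The liver is built mostly of hepatocytes, which secrete plasma proteins, make bile acids and cholesterol and detoxify foreign compounds. Around them lie stellate cells and fibroblasts, which make collagen and the other fibres of the extracellular matrix, and the endothelial cells of the sinusoids. Several stress programmes of hepatocytes are run by known switches. NRF2 drives glutathione and thioredoxin genes when its inhibitor KEAP1 is modified by oxidants, SREBP2 drives the enzymes of the mevalonate and sterol route when membrane sterol is low, and NF-kB and AP-1 drive inflammatory and acute phase genes. In fish, as in mammals, TGF-beta signalling through SMAD proteins drives matrix production and also its own inhibitors, SMAD6 and SMAD7.

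The MR libraries held 11605617 to 22212301 reads on the assembled transcripts (median 18507178), against 12914387 to 23749711 in the controls (median 16745244). Counts of 62718 transcripts were summed over the 10455 zebrafish genes to which 42972 of them had been matched, and levels are given as CPM, counts per 1000000 reads of the scaled library. Trout carry duplicated genes, and a zebrafish gene identifier merges the duplicates and isoforms that match it, so a change of a single copy is not resolved. The 19 hepatocyte markers, among them the fibrinogen chains, apolipoproteins and hemopexin, summed to between 111990 and 140590 CPM in MR livers and between 98831 and 158030 CPM in control livers.

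MR1 stood apart from the other fish. Of 9956 genes with a mean of at least 1 CPM, it held the highest of the 18 levels in 2150 and the lowest in 1910. Next came C4, with 862 and 736. MR1 also lay more than 4-fold from the control median in 587 genes, MR4 in 122, and the other 16 fish in 23 to 84. MR1 was the library with the fewest reads of the 18, and its depth was not tested as a source of these differences. When limma estimated a weight for each library from its scatter, MR1 received 0.25 and MR4 0.52, against 0.75 to 1.46 for the other fish. The called genes and the main gene lists are therefore also given without MR1.

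**Figure D1:**
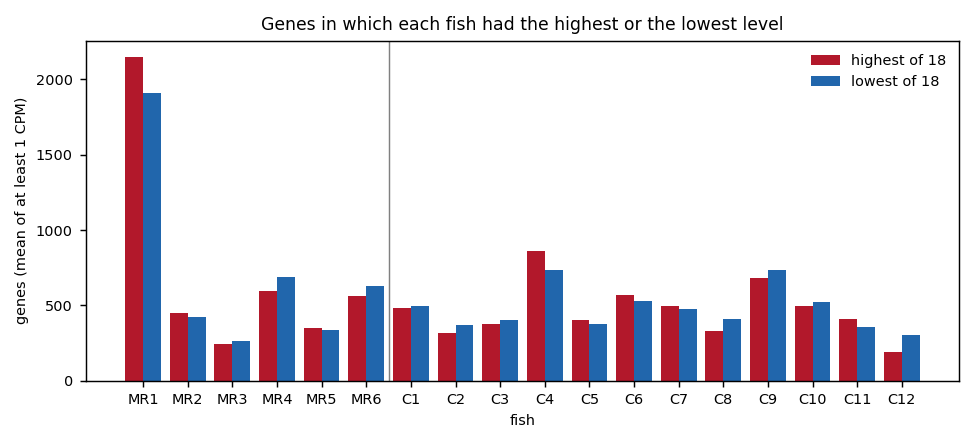
Number of genes (of the 9956 with a mean of at least 1 CPM) in which each fish, along the x axis, had the highest (red) or the lowest (blue) level of the 18. MR1 has 2150 and 1910 such genes, and C4, with the next highest bars, has 862 and 736.

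Middle-dose Roundup was accompanied by few gene changes that passed the test. Of 10455 genes, 25 were called (0.239% of genes, edgeR quasi-likelihood test, Benjamini-Hochberg FDR under 0.1), 13 of them up-regulated and 12 down-regulated in MR livers. The exact test of edgeR called 180 genes, 133 higher and 47 lower, and DESeq2 181, 105 higher and 76 lower. With library totals in place of scaled ones, 4 genes were called, 3 higher and 1 lower. The 13 up-regulated genes of the quasi-likelihood test had log2 fold changes of 0.56 to 5.44 (median 2.81). The 12 down-regulated genes of that test had smaller ones, from -2.43 to -0.46 (median -0.74). Most of the 13 genes called higher were high mainly in MR1, or in MR1 and MR4, as given below. Among the others were single genes of sterol (idi1), glutathione (gclm) and polyamine (odc1) synthesis. Fibrillar collagen, laminin and SMAD inhibitor genes were among those called lower. Beyond the calls, 735 genes had an unadjusted p under 0.05 and were higher in MR (7.03%) and 500 had one and were lower (4.78%), and such genes are termed nominally higher or lower below.

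The up- and down-regulated genes differed in how they depended on MR1. Without MR1, 2 genes were called, both lower (0.0191% of 10454 genes), where the exact test of edgeR called 37 and DESeq2 60, although all 25 kept their direction and 23 kept an unadjusted p under 0.05. The 12 down-regulated genes had a median log2 fold change of -0.70 without MR1, and each stayed nominally lower. The 13 up-regulated genes had a median of 1.05 without MR1, and in 6 of them the log2 fold change fell to 50% or less of its value with all fish. MR1 had the highest of the 18 levels in 11 of the 13, and MR4 the second highest in 10. Over all genes, 358 were nominally higher without MR1 (3.42%) and 387 nominally lower (3.7%).

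The number of calls moved with single libraries, the adjusted p-values of the 24 genes other than btr22 lying between 0.069 and 0.096. It was 1 without MR4 (btr22), 56 without MR2, 132 without MR3, 107 without MR5 and 49 without MR6. Leaving out C1 or any of C5 to C11 left 1 call (btr22), leaving out C4 left 2 (btr22 and smad7), and leaving out C12 left 2 (btr22 and odc1), while 14 genes were called without C3 and 19 without C2. In each of these fits with a single fish left out all 25 genes kept their direction. At the level of single transcripts, the exact test of edgeR called 622 and DESeq2 466. The quasi-likelihood test called 1 of 62718 (0.00159%), a transcript matched to si:dkey-10o6.2. Its level was 0.790 to 1.28 CPM in MR livers, against 1.52 to 3.15 CPM in control livers, a log2 fold change of -1.24 ± 0.18 (SE, edgeR FDR = 0.039). The same fold change had an FDR of 0.12 without MR1.

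**Figure D2:**
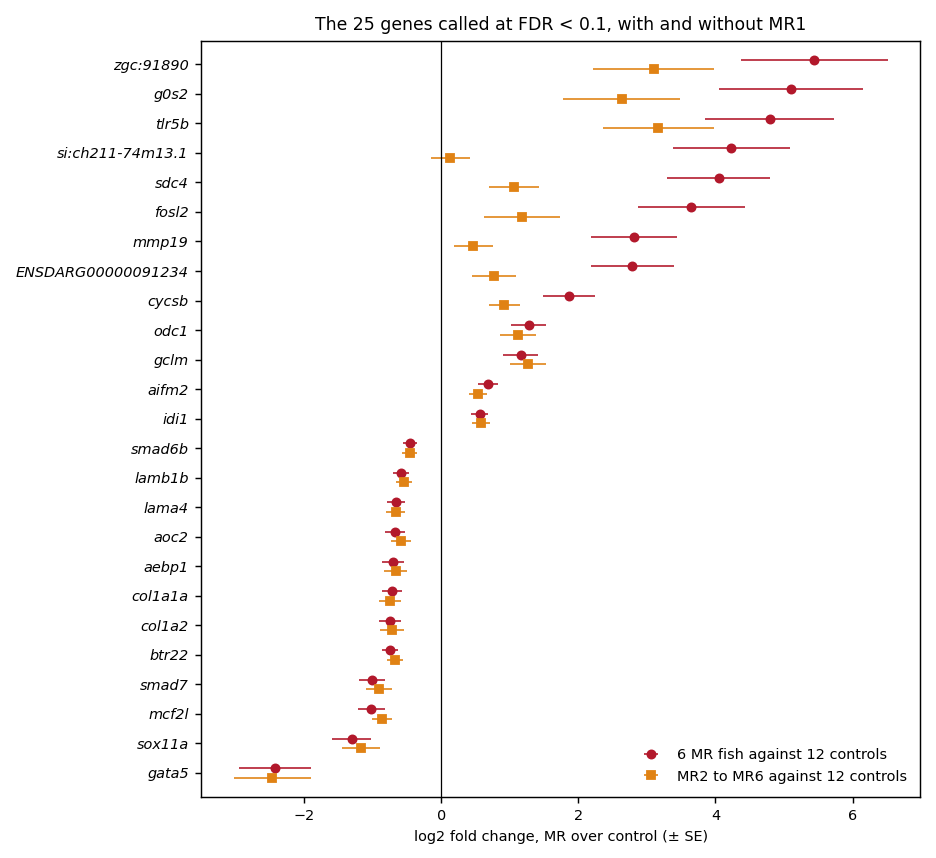
Log2 fold change, MR over control, of the 25 called genes (x axis, bars ± SE) with all 6 MR fish (red circles) and with MR2 to MR6 (orange squares). The 12 genes lower in MR keep nearly the same position, while 6 of the 13 higher genes move to 50% or less of their value, such as si:ch211-74m13.1 with 4.23 for all fish and 0.13 without MR1.

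Many connective tissue genes of the liver were nominally lower in MR livers, with or without MR1, and 5 matrix genes were down-regulated past the threshold. Of 25 markers of stellate cells and fibroblasts, 15 were nominally lower and 0 nominally higher (median log2 fold change -0.46, against 0.01 over all genes), and the same numbers were found without MR1 (median -0.48) and without both MR1 and MR4 (median -0.51). The markers summed to 1174, 1181, 1101, 954, 1134 and 832 CPM in MR1 to MR6, against 1224 to 1599 CPM in controls, so that the groups did not overlap. By their descriptions 2 of these markers are other genes, actin beta 1 and transgelin 2, and without them 14 of 23 were nominally lower (median -0.47) and the sums were 565 to 857 CPM in MR and 912 to 1277 CPM in controls. In bulk tissue, fewer cells of a type and less RNA per cell cannot be told apart. Across all genes 1 marker, col1a2, passed the quasi-likelihood test, where 12 of 10455 genes were called lower. DESeq2 called 7 of the 25 lower, where it called 76 of 10423 over all genes. For edgeR's exact test the counts were 4 of the 25 and 47 of 10455. Left without their collagens, the 18 remaining markers had 8 nominally lower members (median -0.33), and their sums, 549.7 to 749.6 CPM in MR and 678 to 903 CPM in controls, overlapped.

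Type I collagen, the main fibre of scar and of the liver capsule, was lower in every MR liver than in any control. The levels of col1a1a, which codes for its alpha 1 chain and is not in the marker list, were 98.5, 116, 101, 60.7, 110.4 and 58.4 CPM in MR1 to MR6, against values between 123 and 185 CPM (median 141) in controls. No MR liver reached the lowest control, and the log2 fold change was -0.72 ± 0.15 (SE, edgeR FDR = 0.069) with all fish and -0.75 without MR1. For col1a2, the alpha 2 chain, the MR livers had 74.9, 107, 95.2, 53, 110.0 and 61.1 CPM and the controls values between 112 and 189 CPM (median 139), again without overlap (log2 fold change -0.75 ± 0.16, SE, edgeR FDR = 0.092, and -0.72 without MR1). The second alpha 1 gene, col1a1b, missed the threshold at a log2 fold change of -0.69 ± 0.16 (SE, edgeR FDR = 0.11) and of -0.66 without MR1, although the 6 MR livers lay at 80 to 175 CPM and the controls at 176 to 309.9. The exact permutation p of each of the 3 genes was 5.4e-05, the smallest that 18564 splits of the 18 fish can give. Without overlap the MR fish have the lowest mean of any such split, so this p only restates the separation. It carries no correction for the many genes examined.

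Other matrix genes had the same direction. Laminins form the basement membranes of vessels and ducts, and of these lamb1b (6.98 to 11.1 CPM in MR, 11.6 to 17.1 CPM in controls, log2 fold change -0.60 ± 0.12, SE) and lama4 (10.2 to 17.2 CPM in MR, 16.1 to 26 CPM in controls, -0.67 ± 0.13) were down-regulated (edgeR FDR = 0.069 for both). Without MR1 their values were -0.54 and -0.67. The collagen-binding matrix protein gene aebp1 fell to 19.4, 25.5, 23.9, 23.3, 27.7 and 12.6 CPM in MR1 to MR6, against 26.1 to 52.4 CPM in controls (log2 fold change -0.70 ± 0.16, SE, edgeR FDR = 0.096, and -0.67 without MR1). Its MR and control values overlapped in a single liver, MR5. Sparc, which codes for a collagen chaperone of the matrix, had 63.2 to 102 CPM in MR and 104 to 169 CPM in controls without overlap, but an edgeR FDR of 0.15 (log2 fold change -0.52, and -0.56 without MR1). In all, the 6 MR livers lay below all 12 controls in 7 of 10455 genes (0.067%), which were col16a1, col1a1a, col1a2, col1a1b, sparc, lamb1b and sox11a, and above all controls in 0 genes (0%).

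Several minor collagens were nominally lower without passing the test. Among them, col16a1, whose product sits on fibril surfaces, had 0.619 to 2.02 CPM in MR against 2.45 to 5.84 CPM in controls (log2 fold change -1.04 ± 0.24, SE, edgeR FDR = 0.103, and -1.04 without MR1). The 3 chains of type VI collagen, which forms beaded filaments around cells, had log2 fold changes of -0.53 (col6a1), -0.65 (col6a2) and -0.66 (col6a3) with all fish, and of -0.71, -0.79 and -0.69 without MR1. The PDGF receptor genes, which mark stellate cells and fibroblasts, had values of -0.47 (pdgfrb) and -0.70 (pdgfra) with all fish and -0.66 and -1.11 without MR1, and pdgfra was nominally lower only without it. The level of pdgfrb was 17.7 CPM in MR1, that of the highest control (controls 9.81 to 17.7 CPM), and 6.47 to 11.5 CPM in MR2 to MR6. That of pdgfra was 2.82 CPM in MR1, above every control (0.954 to 2.51 CPM), and 0.0851 to 1.16 CPM in MR2 to MR6.

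Small proteoglycans and muscle-type genes of these cells were split. Decorin (dcn, log2 fold change -0.43 ± 0.12, SE) and lumican (lum, -1.01 ± 0.35), which organise collagen fibrils, were nominally lower, as were the contractile gene tagln (-0.63 ± 0.24) and tcf21 (-0.65 ± 0.26), a transcription factor of mesenchymal cells. No difference was seen at this precision in the matricellular gene postna (-0.16 ± 0.14), in the acta2 gene described as smooth muscle actin (-0.05 ± 0.10), in lrata (-0.08 ± 0.34), whose product stores vitamin A in stellate cells, or in hand2 (0.09 ± 0.32). Lrata was nonetheless at 0.513 CPM in MR1, against 5.92 to 19.1 CPM in MR2 to MR6 and 8.31 to 19.7 CPM in controls.

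Among all 97 genes of collagens, laminins, integrins and matrix enzymes, 18 were nominally lower (18.6%) and 5 nominally higher (5.15%), with a median of -0.17. Their summed level was not lower in every MR liver. It was 13266, 6475, 7609, 13715, 7161 and 6866 CPM in MR1 to MR6, against 6789 to 11317 CPM in controls, so that MR1 and MR4 lay above every control. The list shares 11 genes with the stellate markers, and its other 86 members held 8 nominally lower and 5 nominally higher ones. Of the 97, 3 were called lower (col1a2, lamb1b and lama4) and 1 higher, mmp19, where 12 of all 10455 genes were called lower and 13 higher. Without MR1 the list held 23 nominally lower and 1 nominally higher member. Among the matrix proteases, mmp19 and mmp9 had the other direction with all fish. The level of mmp19 was 127, 5.2, 3.17, 8.11, 3.28 and 4.6 CPM in MR1 to MR6 and 1.28 to 6.06 CPM in controls, and mmp9, the gelatinase of neutrophils and macrophages, had 57.7, 1.16, 1.14, 22.9, 0.743 and 2.13 CPM against 0.273 to 3.96 CPM in controls. In both genes MR1 and MR4 lay above the controls, and of the other 4 MR livers none did. Without MR1 the log2 fold changes were 0.47 for mmp19 and 1.62 for mmp9, against 2.81 and 2.95 with it.

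**Figure D3:**
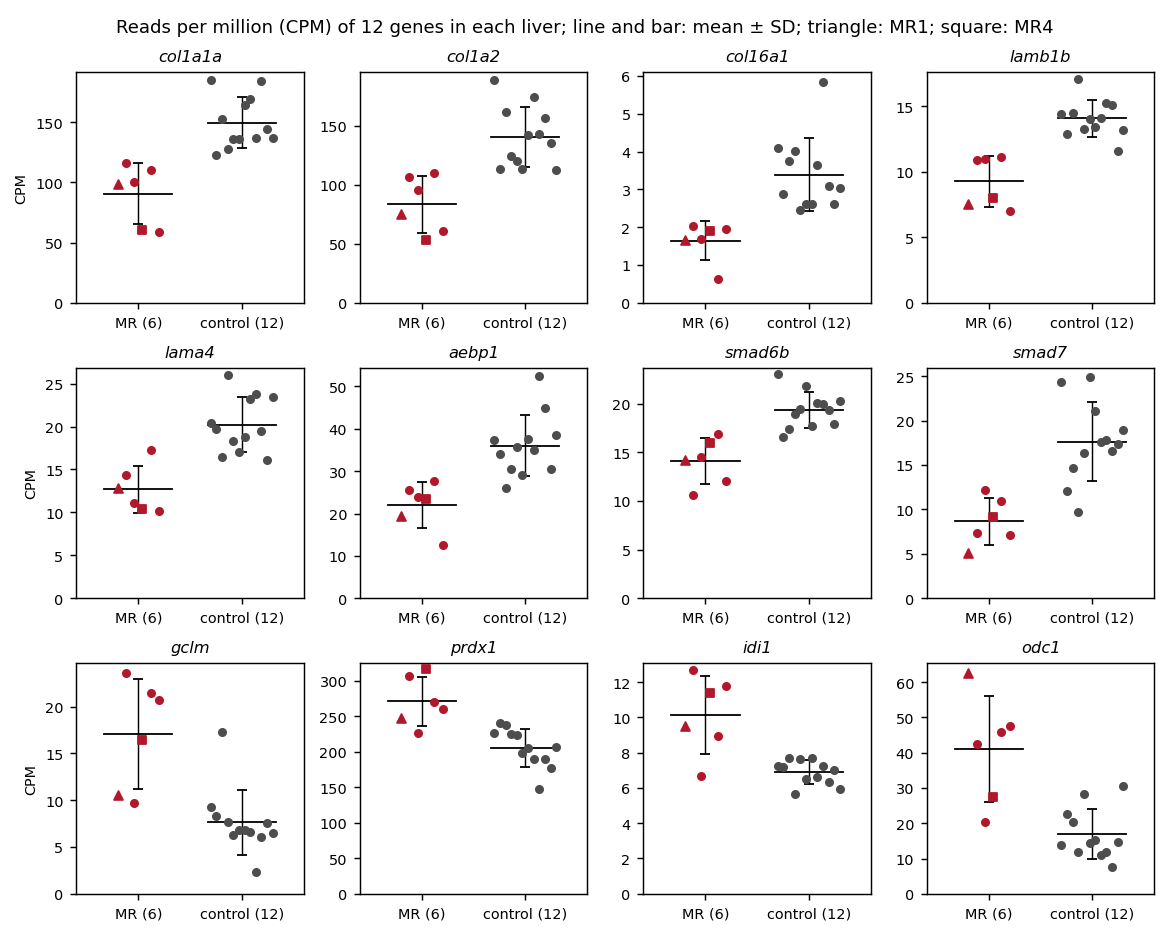
CPM (y axis, from 0) of 12 genes in each of the 6 MR livers (left, red, MR1 a triangle and MR4 a square) and 12 control livers (right, grey), with the mean and SD of each group. All 6 MR livers lie below all controls for col1a1a, col1a2, col16a1 and lamb1b, and MR4, a square, has the highest prdx1 level and is among the lowest for col1a1a and col1a2.

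The genes of both inhibitory SMADs were down-regulated. SMAD7 and SMAD6 block TGF-beta and BMP receptors and are themselves induced by these pathways. The level of smad7 was 5.13, 7.39, 12.1, 9.1, 11 and 7.15 CPM in MR1 to MR6 and between 9.66 and 24.9 CPM (median 17.4) in controls (log2 fold change -1.01 ± 0.20, SE, edgeR FDR = 0.069), and MR3 and MR5 overlapped with the lowest controls. The smad6b gene had 14.2, 10.6, 14.5, 16, 16.9 and 12.1 CPM in MR1 to MR6 against 16.6 to 23.1 CPM in controls, a log2 fold change of -0.46 ± 0.10 (SE, edgeR FDR = 0.096). Without MR1 the values were -0.91 for smad7 and -0.46 for smad6b, both nominally lower.

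Among glutathione and thioredoxin genes, more were nominally higher than lower in MR livers. Of 50 antioxidant genes, 12 were nominally higher (24%) and 1 nominally lower, and 11 and 0 without MR1. Without MR1 and MR4 they were 8 and 1 (16% higher, median 0.05), where 3.6% of all genes were nominally higher. The mean log2 deviation of the list was 0.05, 0.18, 0.06, 0.38, 0.13 and 0.11 in MR1 to MR6. Controls lay at -0.16 to 0.20, and only MR4 was above them. The gene gclm, which codes for the modifier subunit of glutamate-cysteine ligase and so acts in the first step of glutathione synthesis, was the one called. It had 10.5, 23.6, 9.75, 16.4, 21.4 and 20.7 CPM in MR1 to MR6 against values between 2.37 and 17.3 CPM (median 6.84) in controls, a log2 fold change of 1.16 ± 0.26 (SE, edgeR FDR = 0.096) and of 1.26 ± 0.26 without MR1. The highest control was C3, and MR2, MR5 and MR6 exceeded it. The exact test of edgeR and DESeq2 each called 5 of the 50 higher with all fish and 3 without MR1. Over all genes the exact test called 133 of 10455 higher with all fish and 16 without MR1. DESeq2 called 105 of 10423 and 16.

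Enzymes that recycle and use glutathione and thioredoxin had the same direction without passing the test. Glutathione reductase (gsr) had 63.1, 34.9, 26.2, 80.7, 29.6 and 29.8 CPM in MR1 to MR6 and 17 to 36.4 CPM in controls (log2 fold change 0.88 ± 0.21, SE, edgeR FDR = 0.11), and only MR1 and MR4 lay above every control. Its value was 0.75 without MR1 and 0.34 without both. Peroxiredoxin 1 (prdx1), a thioredoxin-dependent peroxidase, had 226 to 316 CPM in MR against 148 to 239.7 CPM in controls, a log2 fold change of 0.40 ± 0.10 with all fish and 0.43 without MR1. Thioredoxin reductase (txnrd1, 0.71 with all fish and 0.48 without MR1), the catalytic ligase subunit gclc (0.58 and 0.51) and the NRF2 inhibitor keap1b (0.63 and 0.44) were nominally higher in both fits.

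Heme oxygenase (hmox1), which breaks down heme and is a classic NRF2 target, varied widely among the MR fish. Its level was 10, 52.2, 78, 80.2, 218 and 416 CPM in MR1 to MR6, against values between 26.2 and 116 CPM (median 53) in controls. MR1 lay below every control and MR5 and MR6 above every control, and the fit gave 1.39 ± 0.46 (SE, p = 0.0063 by edgeR) with all fish and 1.64 ± 0.38 (p = 3.06e-04 by edgeR) without MR1, while the exact permutation p over the 18 fish was 0.24. The autophagy receptor sqstm1 had 1478 CPM in MR1 and 606 CPM in MR4, against 132 to 176 CPM in the other MR livers and 111 to 252 CPM in controls. Catalase (cat, -0.07 ± 0.11) and gstp1 (0.04 ± 0.15), a glutathione transferase, showed no difference beyond the spread. The related list of iron, heme and metal genes, 2 of whose 50 members are also in the antioxidant list, held 11 nominally higher and 1 nominally lower member with all fish and 6 and 0 without MR1.

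Many genes of cholesterol synthesis were nominally higher in MR livers. Of 25 members, 12 were nominally higher and 0 lower with all fish (48%, median 0.49), 15 and 0 without MR1 (median 0.50), and 15 and 0 without MR1 and MR4 (median 0.55). The quasi-likelihood test called 0 of them, the exact test of edgeR 4 and DESeq2 3. Over all genes the exact test called 133 of 10455 higher and DESeq2 105 of 10423. The mean log2 deviation of the list from the control mean was -0.27 in MR1 and 0.57, 0.11, 0.72, 0.54 and 0.77 in MR2 to MR6, against -0.63 to 0.67 in controls. The control range thus covered 4 of the 6 MR livers, and MR1 lay on the other side of 0 from the rest.

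A gene of the same route that is not in the list, idi1, was called higher. Isopentenyl-diphosphate isomerase acts after mevalonate, and idi1 had 9.49, 12.7, 6.7, 11.4, 8.92 and 11.7 CPM in MR1 to MR6 against 5.64 to 7.7 CPM in controls, a log2 fold change of 0.56 ± 0.12 (SE, edgeR FDR = 0.092) and of 0.58 without MR1. All MR livers except MR3 lay above every control. The regulator srebf2, which codes for SREBP2, had 56.5, 38.1, 25.2, 102, 29.3 and 60.9 CPM in MR1 to MR6 against 17.9 to 43 CPM in controls (log2 fold change 1.00 ± 0.24, SE, edgeR FDR = 0.11, and 0.98 without MR1). Insig1, which retains SREBP2 in the endoplasmic reticulum and is its target, had 0.538 to 2.96 CPM in MR and 0.233 to 1.73 CPM in controls, at a log2 fold change of 1.29 ± 0.39 with all fish and 1.40 without MR1.

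Most enzymes along the route were nominally higher with all fish or without MR1. Squalene synthase (fdft1), the first committed step towards sterols, had 6.93, 15, 7.3, 46.2, 9.66 and 27.6 CPM in MR1 to MR6 and 3.86 to 13 CPM in controls (log2 fold change 1.30 ± 0.35, SE, edgeR FDR = 0.16, and 1.46 without MR1). The rate-limiting reductase hmgcra had a log2 fold change of 0.54 ± 0.22, and the later enzymes msmo1 (0.61), sc5d (0.52), ebp (0.62), cyp51 (0.62) and hsd17b7 (0.68) were nominally higher as well. Leaving out MR1 widened each of these (0.63, 0.75, 0.63, 0.77, 0.77 and 0.79 in the same order). Squalene epoxidase (sqle), lanosterol synthase (lss) and mvd reached p under 0.05 only without MR1, whose levels of 2.82, 2.44 and 0.513 CPM compare with 17.6 to 51.6, 9.39 to 24.6 and 2.27 to 4.46 CPM in the other MR livers.

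Of the 25 members, 4 had a negative log2 fold change with all fish and 3 without MR1. Among these hmgcs1, the synthase at the head of the route, had -0.29 ± 0.15 with all fish, while dhcr7, a last step, was near 0 at 0.09 ± 0.18. Fatty acid synthesis and storage had smaller shares: of 27 genes 4 were nominally higher (14.8%) and 1 lower with all fish, and 5 (18.5%) and 1 without MR1. Without MR1 and MR4 they were 8 and 0 (29.6% higher), where 3.6% of all genes were nominally higher. The quasi-likelihood test called 1 of the 27 higher with all fish, where it called 13 of 10455 genes higher, and 0 without MR1. The exact test and DESeq2 each called 2 higher with all fish (133 of 10455 and 105 of 10423 over all genes) and 0 without MR1. Of the 27 genes, the elongase elovl6 (43.4, 139.8, 44, 58, 181 and 126 CPM in MR1 to MR6, 9.0 to 151 CPM in controls) and srebf1 (log2 fold change 0.47 ± 0.20), which codes for the lipogenic SREBP1, were nominally higher with and without MR1. The desaturase scdb, at 58.9 to 2059.7 CPM in MR and 60.6 to 1448 CPM in controls, and thrsp, at 667 to 3539 CPM in MR and 67.2 to 3743 CPM in controls, ranged too widely within each group for a difference to be detectable.

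Proteasome subunit genes were nominally higher in MR livers by small amounts. Of 48 members, 17 were nominally higher and 1 lower with all fish (35.4%, median 0.22), and 15 and 0 without MR1 (median 0.25). Without MR1 and MR4 they were 9 and 1 (18.8% higher, median 0.20), where 3.6% of all genes were nominally higher. The list deviated from the control mean by 0.25, 0.30, 0.11, 0.39, 0.19 and 0.06 in MR1 to MR6, all above 0, but inside the control range of -0.26 to 0.49. The quasi-likelihood test called 0, the exact test of edgeR 1 and DESeq2 3, against 133 of 10455 and 105 of 10423 higher over all genes. The lid subunits psmd6 (46.7 to 60.6 CPM in MR, 37.7 to 48.9 CPM in controls, log2 fold change 0.32 ± 0.08, SE), psmd11b (0.49 ± 0.13), psmd8 (0.46 ± 0.12) and the deubiquitinase psmd14 (0.48 ± 0.15) were nominally higher in both fits. The ATPase psmc2 (-0.10 ± 0.15) and the core subunits psma3 (0.15 ± 0.13) and psmb4 (0.12 ± 0.13) were not.

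Several called genes belong to none of these groups. Ornithine decarboxylase (odc1), which makes the first polyamine, putrescine, rose to 62.6, 42.4, 20.4, 27.4, 46 and 47.6 CPM in MR1 to MR6, against values between 7.69 and 30.5 CPM (median 14.6) in controls (log2 fold change 1.28 ± 0.26, SE, edgeR FDR = 0.069, and 1.12 without MR1). MR1, MR2, MR5 and MR6 lay above every control, and MR3 and MR4 did not. The gene aifm2, whose product regenerates coenzyme Q at membranes in mammals, had 19.1, 11.6, 11.5, 14.2, 9.41 and 9.45 CPM in MR1 to MR6 against 5.81 to 10.6 CPM in controls (log2 fold change 0.68 ± 0.15, SE, edgeR FDR = 0.092, and 0.53 without MR1). A cytochrome c gene, cycsb, had 128, 25.3, 9.51, 26.4, 20.5 and 15.1 CPM in MR1 to MR6 against 5.98 to 15.2 CPM in controls (edgeR FDR = 0.069), at a log2 fold change of 1.86 with all fish and 0.92 without MR1.

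On the lower side, btr22, a member of a TRIM-like gene family expanded in fish, had the smallest p of all genes. Its level was 7.83, 10.4, 10.5, 14.9, 11.3 and 11.3 CPM in MR1 to MR6 and between 14.5 and 22.5 CPM (median 18.8) in controls, a log2 fold change of -0.75 ± 0.12 (SE, edgeR FDR = 0.04) and of -0.67 ± 0.11 (FDR = 0.057) without MR1. Only MR4 reached the control range. The guanine nucleotide exchange factor gene mcf2l had 2.57, 7.62, 6.94, 6.28, 6.5 and 10.9 CPM in MR1 to MR6 against 10.3 to 17.9 CPM in controls (log2 fold change -1.02 ± 0.19, SE, edgeR FDR = 0.069, and -0.87 with an FDR of 0.057 without MR1). It was also called in the fit that weights libraries, with btr22, and these were the only genes called there and the 2 called without MR1.

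The remaining lower genes included genes of low level. The transcription factor genes gata5 (0 to 0.578 CPM in MR, 0.242 to 1.88 CPM in controls) and sox11a (0.257 to 1.08 CPM in MR, 1.12 to 2.67 CPM in controls) had log2 fold changes of -2.43 ± 0.52 and -1.31 ± 0.29 (SE, edgeR FDR = 0.092 for both), and of -2.47 and -1.17 without MR1. Gata5 had 0 reads in MR5 and MR6, and its fitted fold change depends on the prior count. The copper amine oxidase gene aoc2 had 16.9, 31, 29.1, 23.2, 27.9 and 21.8 CPM in MR1 to MR6 against 28.6 to 57.3 CPM in controls (-0.68 ± 0.15, SE, edgeR FDR = 0.096, and -0.59 without MR1).

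In 8 of the 13 genes called higher, the levels above the controls were found mainly in MR1, or in MR1 and MR4. Syndecan-4 (sdc4), a cell-surface proteoglycan, had 1367, 12, 16, 103, 15.4 and 13.2 CPM in MR1 to MR6, against 11.7 to 22.1 CPM in controls, and the flagellin receptor gene tlr5b had 1276, 3.52, 6.16, 448, 5.51 and 9.45 CPM against 2.32 to 25.4 CPM in controls. In both, the 4 other MR livers lay within the control range. The fits gave log2 fold changes of 4.05 and 4.79 with all fish and 1.05 and 3.17 without MR1, and the exact permutation p over 18 fish was 0.071 for sdc4 and 0.11 for tlr5b.

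The lipolysis inhibitor g0s2 had 569.5, 2.02, 0.12, 94.6, 0.619 and 2.81 CPM in MR1 to MR6 against 0.583 to 7.46 CPM in controls (log2 fold change 5.10, exact permutation p = 0.32). The AP-1 subunit gene fosl2 had 114, 0.924, 1.97, 12.9, 1.42 and 2.47 CPM in MR1 to MR6 against 0.409 to 4.16 CPM in controls (3.65, exact permutation p = 0.045), and zgc:91890 had 488, 0.52, 0.897, 92.1, 0.991 and 1.02 CPM against 0.574 to 9.38 CPM in controls (5.44, exact permutation p = 0.17). MR1 and MR4 were the 2 highest MR livers in each. Without MR1 the log2 fold changes were 2.63 (g0s2), 1.18 (fosl2) and 3.10 (zgc:91890). Without both of them the log2 fold changes were -0.11 (sdc4), -0.77 (tlr5b), -1.24 (g0s2), -0.035 (fosl2) and -1.39 (zgc:91890), so that the direction turned. It turned likewise for si:ch211-74m13.1 (0.13 without MR1 and -0.33 without both), which had 225 CPM in MR1 and 1.19 to 4.79 CPM in MR2 to MR6. The other 2 genes of this kind were mmp19, given above, and ENSDARG00000091234, with 47.5, 2.54, 1.91, 4.44, 0.743 and 2.13 CPM in MR1 to MR6 against 0.705 to 2.17 CPM in controls (log2 fold change 2.79, and 0.77 without MR1).

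Lists of inflammatory and immediate early genes showed the same division between fish. Of 44 immediate early and AP-1 genes, 16 were nominally higher (36.4%) and 4 lower with all fish, but 1 higher and 5 lower without MR1. Of 46 NF-kB and TNF signalling genes, 15 were nominally higher (32.6%) with all fish and 2 without MR1, and of 22 acute phase and cytokine signalling genes 8 and 3. The AP-1 list lay 1.40 above the control mean in MR1 and 0.35 above it in MR4 on the log2 scale, and between -0.35 and -0.02 in the other MR livers, against -0.24 to 0.23 in controls. For the NF-kB list MR1 was at 1.38 and MR4 at 0.54, for the acute phase list at 1.21 and 0.69, and the other 4 MR livers lay between -0.32 and 0.08 in both.

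Single genes of these lists moved by large factors in MR1. The repressor of NF-kB tnip2 had 59.4 CPM in MR1 and 0.372 to 1.9 CPM in MR2 to MR6 (controls 0.256 to 1.97), egr1, an immediate early factor, 93 and 1.49 to 4.23 CPM (controls 0.744 to 5.31), and the stress factor atf3 29.5 and 0.124 to 5.22 CPM (controls 0.198 to 1.58). The NF-kB subunit relb stood at 338 CPM in MR1 and 51.2 CPM in MR4, against controls at 5.64 to 31.9 CPM. The copper transporter slc31a1 had 7097 and 5936 CPM in MR1 and MR4, against 327 to 507 CPM in the other MR livers and 305 to 1890.0 CPM in controls. Haptoglobin (hp), a plasma acute phase protein, had 35081 and 22729.6 CPM in the same fish and 377 to 1972 CPM in the others, but controls alone ranged over 824 to 31042 CPM.

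Leukocyte markers were also higher in MR1 and MR4 than in the other MR livers. The 22 markers summed to 404 CPM in MR1 and 468 CPM in MR4, against 228 to 262 CPM in the other MR livers and 253 to 575 CPM in controls, and none was at 0 in all fish of a group. As a list they had 1 nominally higher and 2 nominally lower members (median -0.14), and 0 and 8 without MR1 and MR4 (median -0.48). Their part in the levels of the inflammatory genes was not tested.

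**Figure D4:**
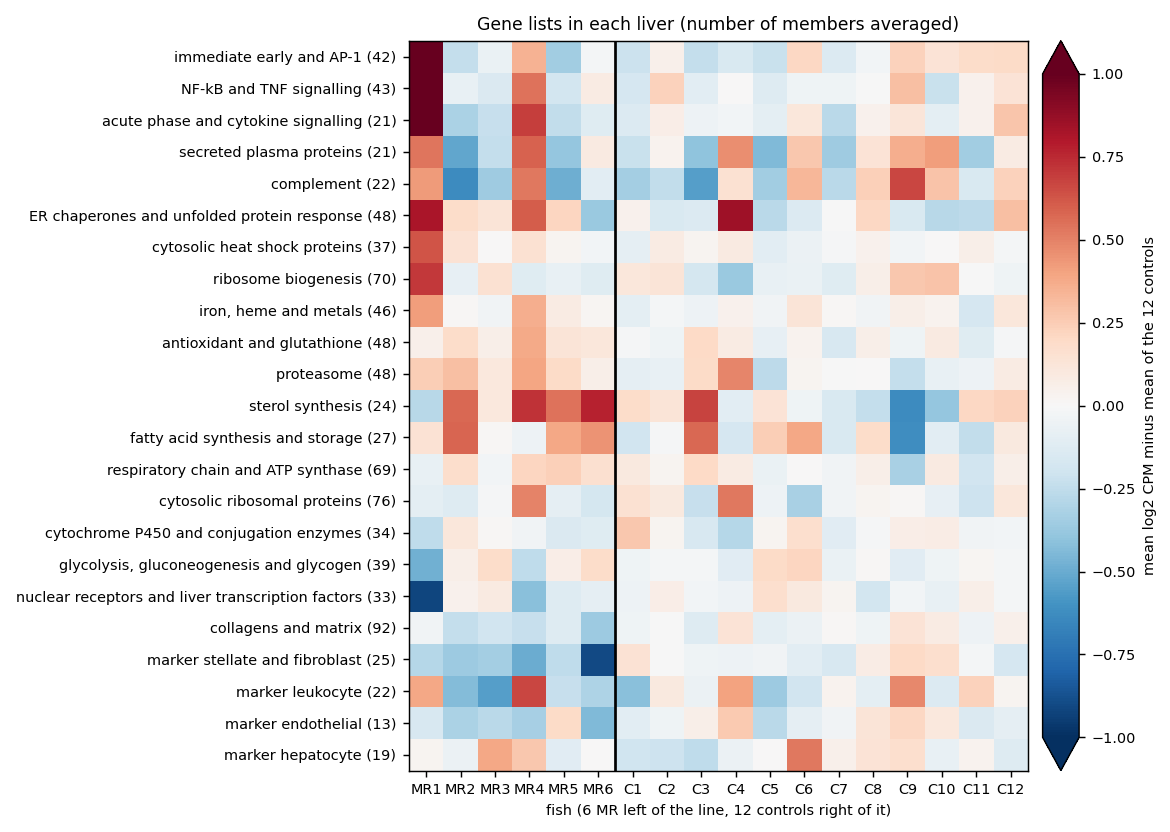
Mean log2 CPM of each gene list in each liver minus the mean of the 12 controls (colour, drawn from -1 to 1; values past 1 have the end colour), with the 6 MR livers left of the line and the controls right of it and the number of genes averaged in brackets. MR1 is at 1.40, 1.38 and 1.21 for the 3 uppermost lists and at -0.92 for liver transcription factors, whereas the stellate markers are below 0 in all 6 MR livers.

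Chaperone genes were high in MR1 as well. The 49 endoplasmic reticulum chaperone genes held 10 nominally higher members with all fish and 2 without MR1, and the 37 cytosolic heat shock genes 8 and 2. The deviation of the heat shock list was 0.63 in MR1 and -0.03 to 0.15 in MR2 to MR6, against -0.11 to 0.09 in controls. That of the reticulum list was 0.82 in MR1 and 0.60 in MR4, but control C4 had 0.84. The J-protein dnajb9, a reticulum co-chaperone, had 80.2 CPM in MR1, 3.15 to 10 CPM in MR2 to MR6 and 2.22 to 7.75 CPM in controls. Members of the 2 lists that held in both fits included the protein disulphide isomerase pdia5, nominally higher at 0.37 with all fish and 0.39 without MR1, and the small heat shock gene hspb1, nominally lower at -1.18 and -1.23.

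Genes of ribosome assembly had 8 nominally higher members of 73 with all fish and 1 without MR1, and the list lay 0.71 above the control mean in MR1. The autophagy and lysosome list went to 2 nominally higher members of 74 without MR1, against 11 with it, and the amino acid response list to 4 of 62, against 9. The apoptosis and p53 list had 5 of 38 nominally higher with all fish, aifm2 among them, and 1 without MR1.

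Hepatocyte transcription factors were low in MR1. The list of 35 nuclear receptors and liver factors lay at -0.92 in MR1 and -0.42 in MR4, and between -0.13 and 0.09 in the other MR livers, against -0.18 to 0.17 in controls. Hnf4a, the central hepatocyte regulator, had 22.5 CPM in MR1, against 65.4 to 76.6 CPM in MR2 to MR6 and 46.1 to 97.3 CPM in controls. The bile acid sensor target nr0b2a had 22.3 CPM in MR1, against 219 to 545 CPM in MR2 to MR6 and 168 to 509 CPM in controls, and the clock repressor bhlhe40 had 11.8 CPM in MR1, against 55.8 to 123 CPM in MR2 to MR6 and 78.2 to 181 CPM in controls. The orphan receptor nr2f1a was nominally lower in both fits, at -0.66 with all fish and -0.49 without MR1, with 13, 43.3, 45.2, 33.1, 50.3 and 39 CPM in MR1 to MR6 and 47.3 to 70.1 CPM in controls. Of the 35, 4 were nominally lower and 1 higher with all fish and 2 and 0 without MR1.

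Most lists of the secretory and metabolic functions of hepatocytes held few nominally changed members, and several lists differed between fish. Over all genes 7.03% were nominally higher and 4.78% lower. Some of these lists passed such shares, as complement (9.09% lower), apolipoprotein (11.1% higher) and bile acid genes (9.52% higher) did, while others lay below them. None of the 19 hepatocyte markers was nominally higher or lower (median 0.08). EdgeR's exact test and DESeq2 called 0 of them, where over all genes they called 180 of 10455 and 181 of 10423. Calls were so rare over all genes that 0 of 19 does not set these markers apart. Among 22 complement genes 1 was nominally higher and 2 lower, among 21 coagulation genes 0 and 1, among 18 apolipoprotein genes 2 and 0, among 21 other plasma proteins 1 and 0, and among 21 genes of bile acids 2 and 0. The complement list still differed between fish: it had 6 nominally lower members without MR1 and MR4, and of its genes one c7 (ENSDARG00000057121) had 467 and 222 CPM in those fish against controls at 4.36 to 31.9 CPM, while the other c7 (ENSDARG00000042172) was nominally lower at -1.13 ± 0.35 (SE). By mean log2 deviation, the other plasma proteins lay at 0.53 in MR1 and 0.59 in MR4, against -0.44 to 0.47 in controls. In the other MR livers they lay between -0.52 and 0.09. Bile acid genes lay at -0.30 in MR1, -0.26 in MR4 and 0.31 in MR2, against -0.24 to 0.18 in controls. In MR3, MR5 and MR6 they lay at -0.04 to 0.13. The most abundant secreted products, such as fgg, had between 12184 and 22709.5 CPM (median 14907) in MR and values between 10309.9 and 19563 CPM (median 13539.6) in controls.

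Counts for energy and amino acid metabolism were also small. Fatty acid oxidation had 0 nominally higher and 3 lower members of 35 (8.57% lower), and glycolysis and glycogen 2 and 3 of 39 (7.69% lower). Amino acid breakdown had 0 and 0 of 68, and cytochrome P450 and conjugation enzymes 0 and 2 of 37 (5.41% lower). Over all genes 4.78% were nominally lower. By mean log2 deviation, the glycolysis list lay at -0.48 in MR1 and -0.26 in MR4, below every control (-0.11 to 0.22). In the other MR livers it lay at 0.06 to 0.19. The fatty acid oxidation list lay at -0.34 in MR1 and -0.12 to 0.05 in MR2 to MR6, against -0.19 to 0.19 in controls. The cytosolic ribosomal proteins had 0 and 0 of 76, although MR4 lay at 0.49 and the other MR livers between -0.18 and -0.01 (controls -0.33 to 0.52). Respiratory chain genes had 2 nominally higher members of 69 with all fish and 7 without MR1 (median 0.15), and mitochondrial ribosomal proteins 3 and 4 of 68. Cell cycle genes held 0 nominally higher and 1 lower member of 68, the replication helicase subunit mcm6 (-0.85 ± 0.25, SE).

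Counts in the smaller lists were low. Over all genes 7.03% were nominally higher and 4.78% lower with all fish, and 3.42% and 3.7% without MR1. The interferon and MHC list had 3 nominally higher and 1 nominally lower member of 27, and 0 and 1 without MR1, the lower one in both fits being cd74a (-0.49 with all fish). The circadian list had 3 and 1 of 24 (12.5% and 4.17%), and 3 and 2 without MR1 (12.5% and 8.33%). Among its members cry1b (0.40) and arntl1a (0.40) were nominally higher and stayed so without MR1. The glucocorticoid and fasting list had 4 and 0 of 39, and 1 and 3 without MR1. Of 4 riboflavin genes rfk, riboflavin kinase, had 353, 6.87, 9.45, 91.9, 6.5 and 6.47 CPM in MR1 to MR6 and 3.8 to 32.8 CPM in controls, again high in MR1 and MR4, while the transporter slc52a3 had 4.94 to 28.5 CPM in MR and 9.04 to 28 CPM in controls. For estrogen response only the receptor esr1 was tested, at between 53 and 196 CPM (median 136) in MR and between 68.1 and 167 CPM (median 126) in controls (log2 fold change 0.11 ± 0.21, SE).

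**Figure D5:**
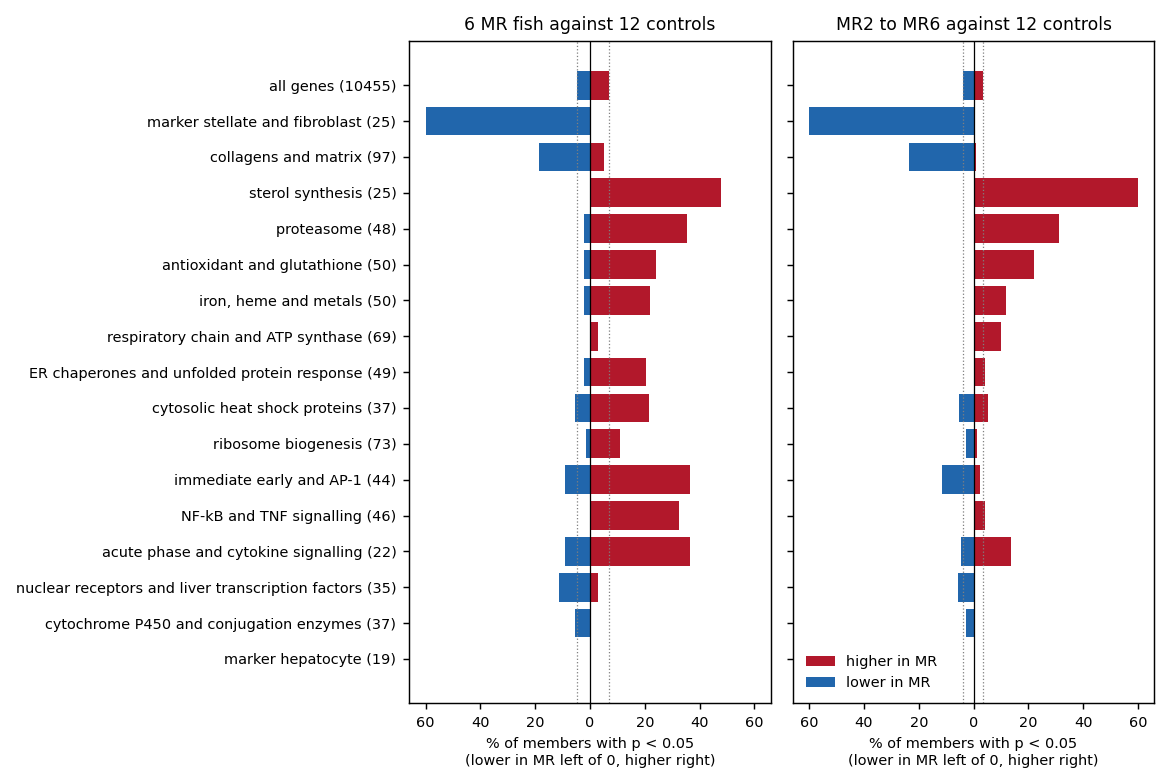
Percentage of the tested members of each list (number in brackets) with an unadjusted p under 0.05, higher in MR to the right and lower in MR to the left of 0, with all MR fish (left panel) and with MR2 to MR6 (right panel). Dotted lines mark the percentages over all 10455 genes, 7.03 and 4.78 in the left panel and 3.42 and 3.7 in the right. The stellate bar (60% lower) is as long in both panels, and those of the AP-1 and NF-kB lists shorten from left to right.

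Markers of the remaining cell types were compared as summed levels. Endothelial markers summed to 107 to 161 CPM in MR and 118 to 157 CPM in controls, with 3 of 13 nominally lower, among them both genes annotated tie1, receptors of vessel endothelium, of which 1 is described as TEK. Their mean log2 deviation was -0.16, -0.32, -0.27, -0.33, 0.19 and -0.44 in MR1 to MR6, against -0.27 to 0.26 in controls. MR2, MR4 and MR6 thus lay below every control. Bile duct markers summed to 531 to 1050.0 CPM in MR and 459.7 to 1155 CPM in controls, and erythroid markers to 152 to 184.5 CPM in MR and 98.8 to 199.99 CPM in controls, with 1 of 9 and 0 of 6 nominally lower. The 4 exocrine pancreas markers summed to 52.5 to 60.2 CPM in MR and 56.0 to 158 CPM in controls. None of these markers was at 0 in all fish of a group. The parts of these cell types in the results above were not tested.

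The MR livers were also compared directly with those of the other Roundup doses. No gene was called between MR and HR (0 of 10284, 0%, edgeR quasi-likelihood test), where 121 genes were nominally higher in MR (1.18%) and 168 lower (1.63%). Between MR and LR 0 of 10280 genes were called (0%), with 164 nominally higher in MR (1.6%) and 209 lower (2.03%). The exact test of edgeR called 4 genes between MR and HR and DESeq2 1, and both called 0 between MR and LR. The 4 were gck, at a log2 fold change of 4.28, umod at -6.47, col16a1 at -1.40 and dhrs13a.2 at 3.52, and DESeq2 called col16a1. These comparisons and those against controls use the same MR livers.

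Connective tissue genes were also nominally lower in MR than at either neighbouring dose. Of the 25 stellate and fibroblast markers, 11 were nominally lower in MR than in HR and 0 higher (median -0.50), and 9 were lower than in LR and 0 higher (median -0.49). Without MR1 each of these counts of lower genes was 12, where 2.35% of all genes were nominally lower than in HR and 2.63% than in LR. The log2 fold changes of MR over HR and of MR over LR were -0.68 and -0.99 for col1a1a, -0.72 and -1.0 for col1a2, -1.40 and -1.11 for col16a1 and -0.60 and -0.60 for col6a1. The levels of col1a1a were 58.4 to 116 CPM in MR, 123 to 169 CPM in HR and 97.8 to 315 CPM in LR. None of these genes had an FDR under 0.1 in the quasi-likelihood test, while col16a1 against HR passed the exact test and DESeq2, as given above.

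For sterol synthesis the 2 comparisons gave different counts. Of 24 genes tested, 2 were nominally higher in MR than in HR (median 0.37), and 10 without MR1 (2.23% over all genes there), whereas 0 were higher or lower against LR (median -0.06). The log2 fold change of fdft1 was 1.00 over HR and -0.37 over LR, and that of srebf2 0.43 over HR. Whether LR and HR differ in this list was not tested. Respiratory chain genes were nominally higher in MR in 7 of 69 against HR (median 0.19) and in 22 of 69 against LR (median 0.26), and in 17 and 35 without MR1 (2.23% and 2.3% over all genes). Against controls 2 of the 69 were nominally higher with all fish and 7 without MR1 (10.1%, where 3.42% of all genes were).

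The antioxidant list had 4 nominally higher members of 49 tested against each dose, and the proteasome list 1 of 48 against HR and 3 against LR. Over all genes 1.18% were nominally higher than in HR and 1.6% than in LR. Without MR1 the antioxidant counts were 8 and 6 and the proteasome counts 2 and 6, where the shares of all genes were 2.23% and 2.3%. Of complement genes, 6 of 22 were nominally lower in MR than in HR and 5 than in LR (1.63% and 2.03% of all genes). The AP-1 list held 0 nominally higher and 0 lower genes against HR with all fish, but 1 and 10 of 43 without MR1, where 2.23% of all genes were nominally higher and 2.35% lower. Odc1 had a log2 fold change of 1.18 over HR and 1.17 over LR, and gclm one of 0.83 and 0.34. In the quasi-likelihood test no gene of the lists passed the FDR threshold in either comparison.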

How the data were processed

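Liver RNA of single fish was sequenced. The authors assembled the transcripts with Trinity, aligned every library to this assembly with Bowtie2 (2.1.0), obtained raw counts with SAMtools (0.1.18), removed transcripts detected in fewer than 6 samples, and deposited these whole-number counts without normalization. They matched transcripts to zebrafish and other peptides by Blastx. Their mean levels, fold changes, p-values and calls, also in the files, were not used. Reads on transcripts with a zebrafish match made up 78.1% of all reads, and 9113 of the 10455 genes had a symbol. Symbols came mostly from the authors' matches to other fish, and lists were matched on them, so a symbol can name a relative of the gene described.

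Counts were summed per zebrafish gene (median 2 transcripts, at most 209) and tested with edgeR 4.0.16 in R 4.3.3 (TMM scaling, quasi-likelihood F-test, two-sided, at least 1 read in at least 6 fish, Benjamini-Hochberg over all features, FDR under 0.1), and also per transcript. The exact test of the study was run as an alternative, as were DESeq2 1.42.0 and voom weights of limma 3.58.1. SE is the absolute log2 fold change over the root of F. The exact permutation test compared mean log2 CPM over all 18564 splits of the fish. On simulated counts of the 18 fish the quasi-likelihood test found 82 of 100 genes changed 2-fold and 99 of 100 changed 4-fold. It made 25 false calls among 10455 genes. The simulated counts had the same spread in every fish, with no outlying library such as MR1 and no shared tanks. They therefore do not give the power of the test in these livers.

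The groups followed the labels, with the 12 controls as 1 group, and no 2 fish of a group agreed within sampling noise (lowest chi-square per degree of freedom 27.0). No column of another sample was present. The 41 gene lists and the comparison were chosen with earlier results of these data known, so lists were only described, by counts and medians. Named genes are all called genes, the 25 genes of smallest p, the 15 largest changes that held without MR1, the 3 of smallest p and 3 of highest level in each list, the 15 genes most moved by MR1, the genes called without MR1 and those of called transcripts. Genes named outside this rule, after their values were seen, were sparc, col6a1, col6a3, dcn, lum, tagln, tcf21, pdgfra, pdgfrb, postna, lrata, hand2, txnrd1, gclc, hmox1, keap1b, hmgcra, cyp51, ebp, hmgcs1, hsd17b7, lss, sqle, mvd, psmd14, srebf1, elovl6, hnf4a and gck. Leaving out both MR1 and MR4, library totals without TMM, and the 2 reduced sets of stellate markers were chosen after seeing the data. Glyphosate groups were not used here, no sequence is printed, and a few withheld items are not reported here.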

Additional observations from a re-analysis of the deposited data

Results flagged for a closer look

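In each set of 6 MR values, the gap between the most extreme fish and its neighbour was divided by the whole range. The values were log2 CPM for genes and mean log2 deviations for lists. Each ratio was set against Dixon's 95% limit for 6 values, which chance passes in about 1 of 20 groups. Of the 25 called genes 2 passed it on the log2 scale, both through MR1. In mmp19 (0.75) MR1 had 127 CPM and MR2 to MR6 had 3.17 to 8.11 CPM. In si:ch211-74m13.1 (0.745) MR1 had 225 CPM and the others 1.19 to 4.79 CPM. Other called genes with high CPM in MR1, such as sdc4, stayed under the limit on this scale. Of 41 gene lists 5 passed it. MR1 was far above the other MR livers in cytosolic heat shock genes (0.725, at 0.63 over the control mean on the log2 scale) and in ribosome biogenesis (0.665, at 0.71). MR4 was far above them in cytosolic ribosomal proteins (0.749, at 0.49). MR6 was far below them in stellate and fibroblast markers (0.633, at -0.90, the others -0.49 to -0.26), and MR3 stood apart in erythroid markers (0.697). Depth, tissue sampling and the state of single fish were not tested as sources of these values.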

How the results depend on the processing

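All 25 called genes kept their direction under each alternative run except limma-voom library weights (24 of 25), the same weights without MR1 (21), and the fit without MR1 and MR4 (19). The count of called genes was 25 in the reported fit and 180 with edgeR's exact test, 181 with DESeq2, 2 with limma-voom library weights, 1 at an FDR under 0.05 and 4 with library totals. Without MR1 the exact test called 37, DESeq2 60 and limma-voom 2, and without MR1 and MR4 1 gene was called (btr22). Leaving out 1 fish at a time gave 1 to 132 genes. For transcripts the reported count of 1 became 622 with the exact test, 466 with DESeq2, 0 with limma-voom weights, 0 with library totals and 0 to 161 with 1 fish left out. MR against HR, with 0 calls, gave 4 with the exact test and 1 with DESeq2, and MR against LR gave 0 in all. The cause of these shifts was not tested.

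Log2 fold changes turned negative without MR1 and MR4 in sdc4 (-0.11), tlr5b (-0.77), zgc:91890 (-1.39), si:ch211-74m13.1 (-0.33), g0s2 (-1.24) and fosl2 (-0.035), in limma-voom without MR1 in tlr5b (-0.028), zgc:91890 (-0.26), si:ch211-74m13.1 (-0.12) and g0s2 (-0.93), and in limma-voom with all fish in g0s2 (-0.66). These 11 values were the changes of direction among the called genes. Over the 126 genes followed through the alternatives, 3353 values stayed on the same side of the threshold, 477 were no longer past it and 188 came past it. Genes that were not called could turn as well. The log2 fold change of esr1 was 0.11 with all fish, -0.035 without MR2 and -0.075 with the replicate number as a block. Of the list medians 395 moved by less than the spread between MR fish and 5 by more.

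Fish share replicate numbers, but not every same-numbered pair varied together: correlations of their deviations were -0.13 to 0.22 between MR and controls (2 of 6 pairs over 0.1), -0.44 to 0.36 between MR and HR (3 of 6) and -0.33 to 0.31 between MR and LR (3 of 6), and 1 fish of 6 correlated best with its own number in each. With the replicate number as a block, 0 genes were called against controls (460 with an unadjusted p under 0.05), 0 transcripts, 1 gene against HR (lum) and 0 against LR. Against controls only C1 to C6 share a number with an MR fish. That fit in effect sets the MR fish against these controls alone, so its counts are not comparable with those of the reported fit. Medians of the sterol, proteasome and stellate lists kept their sign under every scaling, which moved the median of all genes by less than 0.1. Low counts limit the genes whose lowest MR levels were under 1 CPM. Among these were gata5, insig1, sox11a, col16a1, pdgfra, g0s2 and fosl2, and also the called transcript of si:dkey-10o6.2.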

Other observations

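A few genes outside the comparisons above varied by large factors between single fish. The gene matched to uromodulin (umod), a secreted glycoprotein of kidney tubules in mammals, had 85 CPM in C4, 32.2 CPM in C9 and 15.1 CPM in C3, against 0 to 1.32 CPM in the MR livers, and had a log2 fold change of -4.98 (edgeR FDR = 0.23, exact permutation p = 0.12). Pancreatic elastase (cela1) had 28 CPM in C8 and 0.124 to 1.04 CPM in the MR livers, and a protease gene annotated ctrc, but described as elastase 2, ranged from 0 to 1.41 CPM in the MR livers and from 0 to 38.4 CPM in controls. The pancreatic phospholipase gene pla2g1b was more even, with 50.3 to 59.4 CPM in MR and 55.7 to 108 CPM in controls (log2 fold change -0.58, edgeR FDR = 0.11). The dehydrogenase gene dhrs13a.2 had 59.9 CPM in MR2 and 28.8 CPM in MR5, against at most 25.5 CPM in controls.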
